A study of Mus musculus with 12 samples.

Results

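The sirtuin genes Sirt1 to Sirt7 were examined for H3K27ac and H3K27me3 in young and old mouse mesenchymal stem cells (MSCs). They are 7 of the 21951 protein-coding genes in the annotation. A region belonged to them when it overlapped the gene body of a sirtuin or the 20 kb on either side of it. By that rule, 20 of 31617 H3K27ac regions and 8 of 28047 H3K27me3 regions were members, and within these loci the rule used position alone.

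The libraries were made by CUT&RUN, in which an antibody steers a nuclease to a histone mark in permeabilised cells and the released DNA is sequenced. Young cells came from mice of 3 to 5 months and old cells from mice of 18 to 22 months, and both were cultured at 2% O2 throughout. There were 3 libraries per age and antibody, hence 12 libraries in 4 groups. The cells of a sample were split between the H3K27ac and the H3K27me3 antibody, so the marks were read from shared cells and are not independent samples. Genetic background was not given in the labels, nor was it said whether replicates came from separate animals, and p-values measure only the spread between these libraries, which may be technical. As a check of the labelled cell type, all 12 MSC marker genes examined, Pdgfra and Ly6a among them, had an H3K27ac region at the start site, against 2 of 8 blood and macrophage markers and 1 of 6 endothelial markers. Ptprc, which encodes CD45, had none.

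Sirtuins are enzymes that remove acetyl and other acyl groups from lysines and consume NAD+ in doing so, which ties their activity to cell metabolism. SIRT1, SIRT6 and SIRT7 are found mainly in the nucleus, SIRT2 mainly in the cytoplasm, and SIRT3, SIRT4 and SIRT5 in mitochondria. H3K27ac marks active promoters and enhancers, whereas H3K27me3 on the same lysine is laid down by Polycomb repressive complexes. The marks describe the chromatin at these genes and not the amount or the activity of the enzymes.

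Each of the 7 sirtuins had H3K27ac over its main start site, and none had an H3K27me3 region over a start site. Of the 20 H3K27ac regions, 8 covered a sirtuin start, 5 lay elsewhere in a gene body and 7 lay in the flanks. Of the 8 H3K27me3 regions, 2 lay in the gene body of Sirt1 and 6 in flanks. Sirt7 had none within 20 kb, and the nearest began 21.3 kb from its gene body. All 28 regions had been labelled by the authors as present in old and young cells alike. The share of all regions with that label was not counted, so it is not read as a trait of these loci.

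**Figure D1:**
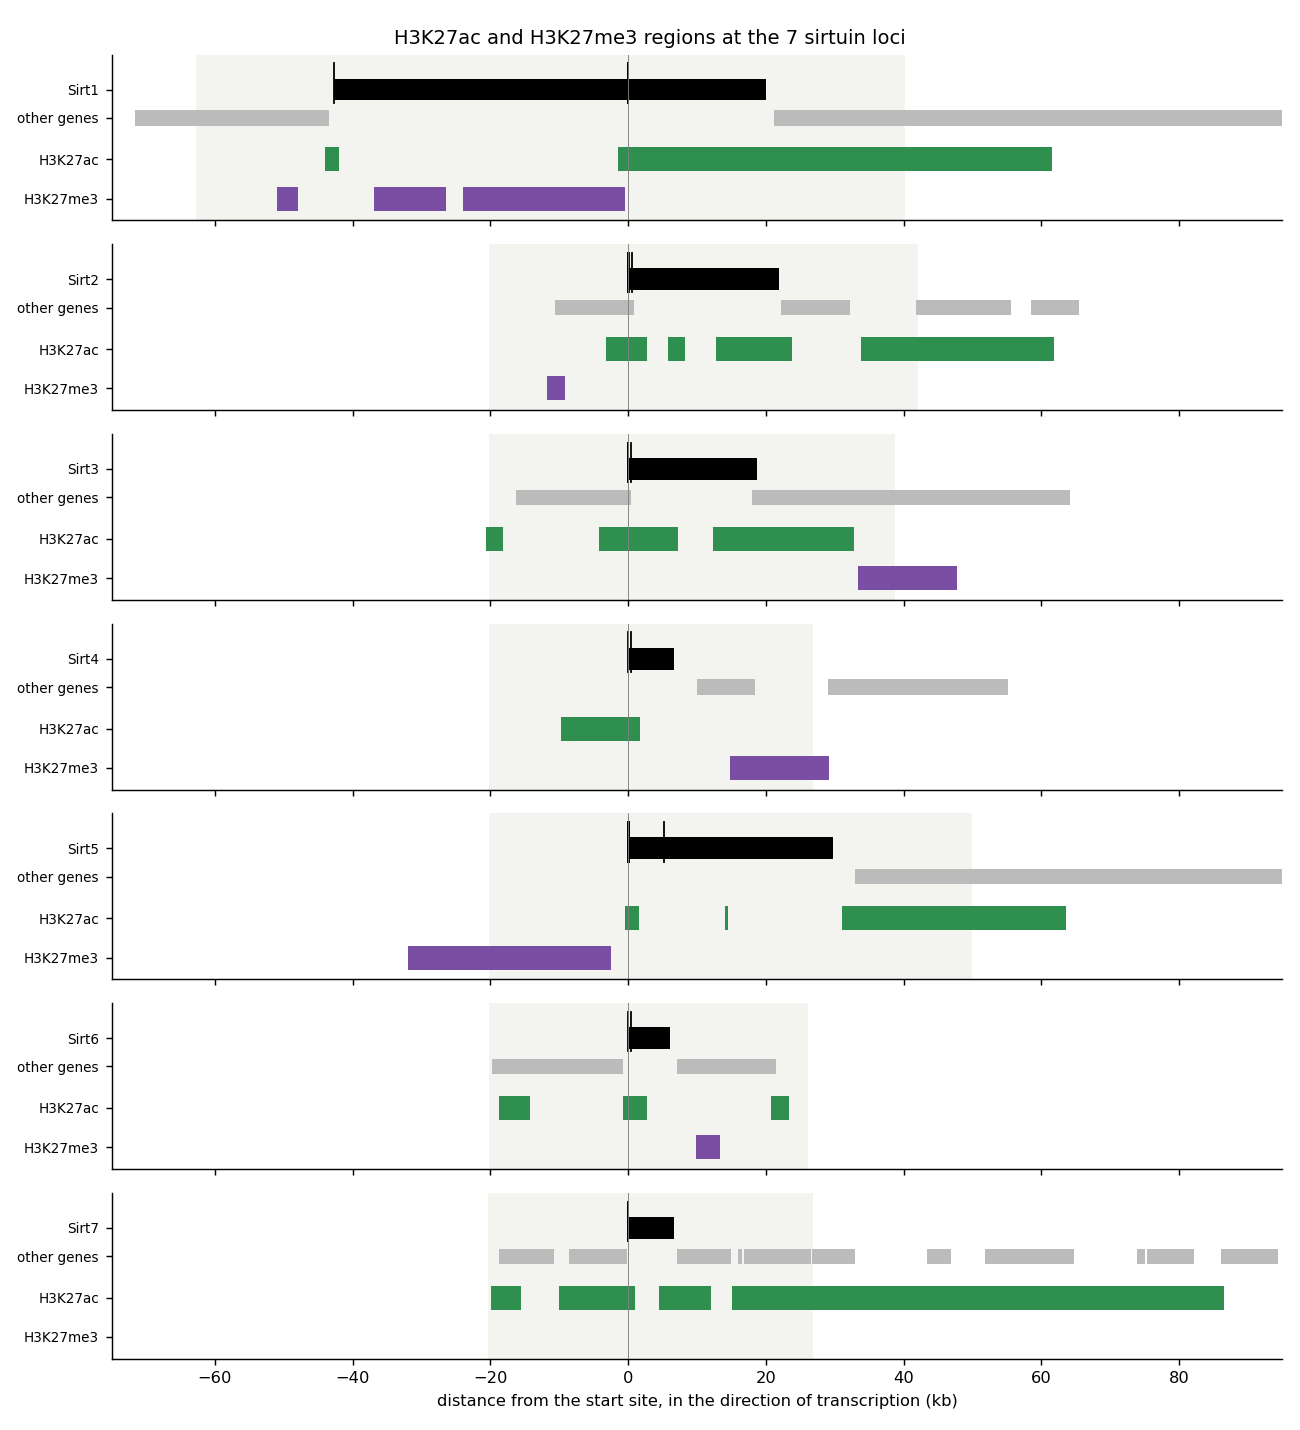
Map of the 7 sirtuin loci, to scale, with distance from the main start site in kb on the horizontal axis and transcription running to the right. Black bars are the sirtuin genes with their start sites as ticks, and grey bars other protein-coding genes that a member region touches. Genes that no member region touches are not drawn. Green bars are H3K27ac regions, purple bars H3K27me3 regions, and the shaded band is the gene plus 20 kb on each side. H3K27ac covers position 0 in every row and H3K27me3 in none. The row of Sirt7 holds no H3K27me3.

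Many of these regions were shared with other genes. Of the 20 H3K27ac regions, 11 also covered a coding transcript start of another protein-coding gene and 14 touched another gene body. Their signal can therefore not be assigned to the sirtuin alone. The starts of Sirt2 and of Nfkbib, an inhibitor of NF-kB, lay 95 bp apart on opposite strands in the same region. The starts of Sirt3 and of the proteasome subunit gene Psmd13 lay 99 bp apart on opposite strands. The region over the Sirt7 start held the whole of Mafg, which encodes a small MAF transcription factor on the same strand. The Sirt4, Sirt5 and Sirt6 start regions touched no other protein-coding gene. The Sirt6 region ended at chr10:81628500, however, and Ankrd24 began just beyond it on the opposite strand, at chr10:81628540. The signal of that region may therefore not belong to the Sirt6 start alone.

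The DNA before the starts is shown for 6 of these genes. Sirt1 was chosen because its start lies at the edge of both marks, Sirt2 because the stretch shown fills the gap between its start and that of Nfkbib, and Sirt4, Sirt5, Sirt6 and Sirt7 because their H3K27ac groups did not overlap between the ages. Each run was read from the RefSeq genome sequence of GRCm38.p6 on the coding strand. Annotated untranslated bases of any gene were left out, which shortened the runs of Sirt1, Sirt2 and Sirt7. Capitals mark exact matches on either strand. The motifs searched were the GC box GGGCGG, the box named for its letters CCAAT, the TATA box in the form TATAAA, the core letters of ETS factor sites CCGGAA, the E-box in the form CACGTG, and TGCGCA as a part of the NRF1 motif. No match of one motif overlapped a match of another.
Sirt1 (chr10:63339051-63339285, minus strand): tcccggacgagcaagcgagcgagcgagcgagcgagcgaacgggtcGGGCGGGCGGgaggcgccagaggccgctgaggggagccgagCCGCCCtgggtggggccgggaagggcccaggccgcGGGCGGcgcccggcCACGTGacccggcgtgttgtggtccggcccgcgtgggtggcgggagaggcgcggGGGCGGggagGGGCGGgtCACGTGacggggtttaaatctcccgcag
Sirt2 (chr7:28766641-28766734, plus strand): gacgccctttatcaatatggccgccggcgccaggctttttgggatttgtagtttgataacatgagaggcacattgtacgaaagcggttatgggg
Sirt4 (chr5:115484726-115484975, minus strand): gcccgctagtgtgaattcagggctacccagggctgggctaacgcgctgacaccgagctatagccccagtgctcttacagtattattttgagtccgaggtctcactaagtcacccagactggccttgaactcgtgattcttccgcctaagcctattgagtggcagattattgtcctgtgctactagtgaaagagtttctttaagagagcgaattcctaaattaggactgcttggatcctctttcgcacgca
Sirt5 (chr13:43365246-43365495, plus strand): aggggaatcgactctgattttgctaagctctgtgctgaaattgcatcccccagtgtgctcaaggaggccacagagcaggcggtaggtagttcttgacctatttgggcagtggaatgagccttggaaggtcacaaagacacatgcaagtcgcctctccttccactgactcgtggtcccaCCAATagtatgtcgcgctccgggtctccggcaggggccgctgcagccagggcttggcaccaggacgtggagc
Sirt6 (chr10:81627798-81628047, minus strand): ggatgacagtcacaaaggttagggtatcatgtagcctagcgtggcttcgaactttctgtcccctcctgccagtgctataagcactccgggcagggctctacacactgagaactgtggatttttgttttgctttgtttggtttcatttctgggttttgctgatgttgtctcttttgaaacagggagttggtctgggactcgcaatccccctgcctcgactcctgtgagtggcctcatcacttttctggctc
Sirt7 (chr11:120625015-120625116, minus strand): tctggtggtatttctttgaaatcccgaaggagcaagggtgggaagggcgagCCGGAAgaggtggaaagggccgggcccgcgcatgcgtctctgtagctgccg

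The Sirt1 run of 235 bases held 36 CpG, 6 GC boxes, some of them overlapping each other, and 2 E-boxes. The other runs held 5 to 10 CpG. The Sirt5 run had 1 CCAAT box and the Sirt7 run 1 ETS core. The runs of Sirt2, Sirt4 and Sirt6 held no match, but the Sirt2 run is short and those of Sirt4 and Sirt6 lie before the outermost start only. The motifs were therefore compared in the 250 bases before each start in RefSeq, where all 7 sirtuins matched with 9 promoters. There a GC box was found in 6 of the 9 (those of Sirt1, Sirt2, Sirt5 and Sirt7 and 1 each of Sirt3 and Sirt6), against 42.6% of 21262 protein-coding promoters. A CCAAT box stood in 3 (Sirt2, Sirt3 and Sirt5), against 35.4%, and an ETS core in 4 (Sirt3, Sirt4, Sirt6 and Sirt7), against 15.0%. An E-box stood in 1 (Sirt1), against 6.63%, the NRF1 part in 1 (Sirt7), against 8.06%, and a TATA box in 0, against 11.6%. In the same table the Sirt1 promoter had a GC content of 79.2%, above 98.0% of promoters, and 39 CpG against a median of 10. The GC content of the other 8 sirtuin promoters lay between 48.8% (Sirt7) and 64.4% (Sirt3), around the median of 55.6%. The matches are a description of the letters and say nothing about binding.

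The level of H3K27ac was compared between genes per length, as RPKM computed from the recovered reads over the true length of the region. Reads spread evenly over the genome would give 0.367 on that scale. The young libraries ran from 1.71 ± 0.263 at the Sirt2 start to 0.737 ± 0.0518 at the main Sirt1 start (SD, n = 3). In between came Sirt6 with a level of 1.67 ± 0.0651, the distal Sirt1 start with 1.31 ± 0.567, Sirt7 with 1.31 ± 0.280, Sirt5 with 1.28 ± 0.339, Sirt4 with 1.07 ± 0.200 and Sirt3 with 0.954 ± 0.0962. Only the last neighbours in this order, Sirt3 and the main Sirt1 start, had ranges that did not overlap.

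In the old libraries Sirt7 headed the order with a level of 1.69 ± 0.333 RPKM (SD, n = 3). It was followed by Sirt2 with 1.37 ± 0.316, Sirt6 with 1.13 ± 0.0557, the distal Sirt1 start with 1.07 ± 0.178, Sirt3 with 0.933 ± 0.184, Sirt5 with 0.827 ± 0.108, Sirt4 with 0.766 ± 0.113 and the main Sirt1 start with 0.695 ± 0.0320. Every pair of neighbours in the old order overlapped. Over all 6 libraries, Sirt2 and Sirt7 stood at the 85.1st and 82.7th percentile of the 9332 H3K27ac regions at promoters, and the main Sirt1 region at the 0.461st percentile. That region was 63 kb long, longer than 93.4% of promoter regions, so its level is an average over a wide domain.

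**Figure D2:**
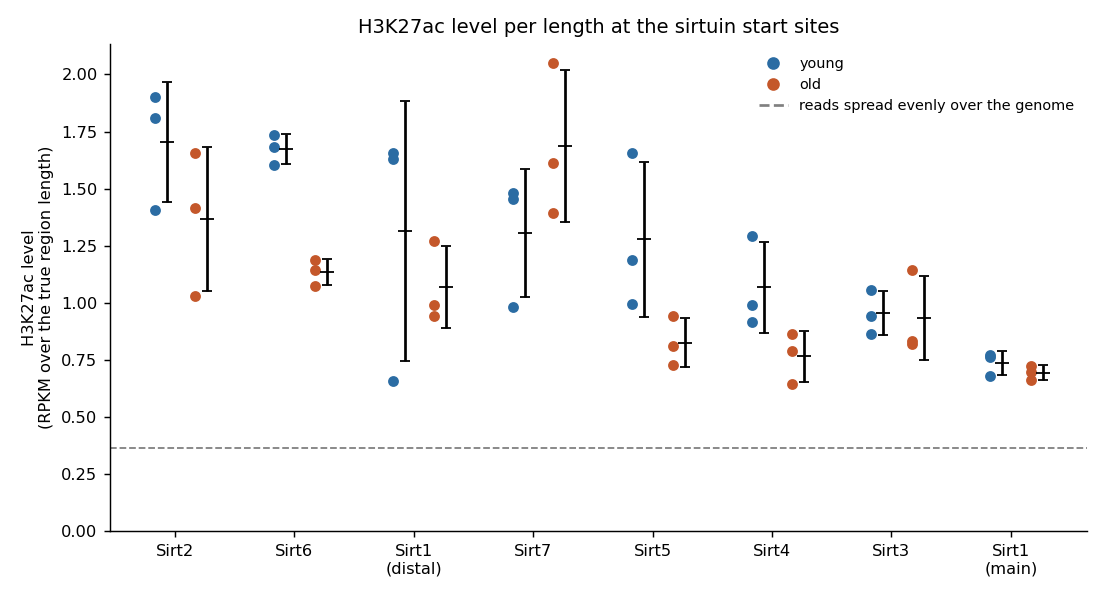
H3K27ac level in RPKM over the true region length (vertical axis) at the 8 regions over a sirtuin start, in order of the young mean. Points are libraries, blue young and orange old, the black marks are mean and SD of 3, and the dashed line is the level of 0.367 for evenly spread reads. Sirt7 is the gene with the highest old mean (1.69), and the old points of Sirt4, Sirt5 and Sirt6 lie under their young points. These levels lack the scaling between libraries that is used below to compare the ages. Without it, the median log2 fold change of all H3K27ac regions, old over young, was -0.12.

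The comparison of old with young asked whether either mark changed with age at these loci. For this, the signal of each region was scaled between libraries by the median of ratios, and this scaled signal is given below. The change is the log2 fold change of old over young from limma with a 95% interval, and adjusted p-values are Benjamini-Hochberg values over all regions of the mark. At an adjusted p under 0.05, limma called 0 of the 20 H3K27ac regions, against 0.0822% of all H3K27ac regions (26 regions, 10 higher and 16 lower in old). The lowest adjusted p of a member was 0.216. Of the members, 3 of 20 (15%) had an unadjusted p under 0.05, where 9.6% of all regions did. edgeR on the recovered reads called 0 members and 0.304% of all regions, with 4 members and 9.55% of all regions at an unadjusted p under 0.05. DESeq2 called 0 members and 0.019% of all regions, with 2 members and 3.11% of all regions at an unadjusted p under 0.05. By direction, 9 members were higher and 11 lower in old. Their median log2 fold change was -0.026, beside -0.0028 over all regions. The scaling itself brings the median of all regions close to 0, for either mark. A change of the mark over the whole genome would therefore not show in these values.

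The libraries of old and young did not overlap in 6 of the 20 H3K27ac regions. In 3 (15%) all old values were higher, against 7.09% of all regions, and in 3 (15%) all old values were lower, against 7.42%. The lower ones were the start regions of Sirt4, Sirt5 and Sirt6. The higher ones were the start region of Sirt7, the 3′ end of Sirt7 with the start of Pcyt2, and the flank of Sirt5 with the start of Nol7. None of these changes passed the adjusted test. In this bulk assay, fewer cells carrying a mark and less of the mark per cell cannot be told apart. On the deposited scale, without further scaling, the median of all H3K27ac regions moved to -0.12 and the calls to 16 higher and 89 lower. There, 1 member had all old values higher, against 2.48% of all regions, and 3 had all old values lower, against 9.92%. The 3 start regions of Sirt4, Sirt5 and Sirt6 and the Pcyt2 region kept their gap, while the Sirt7 start and the Nol7 region overlapped.

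**Figure D3:**
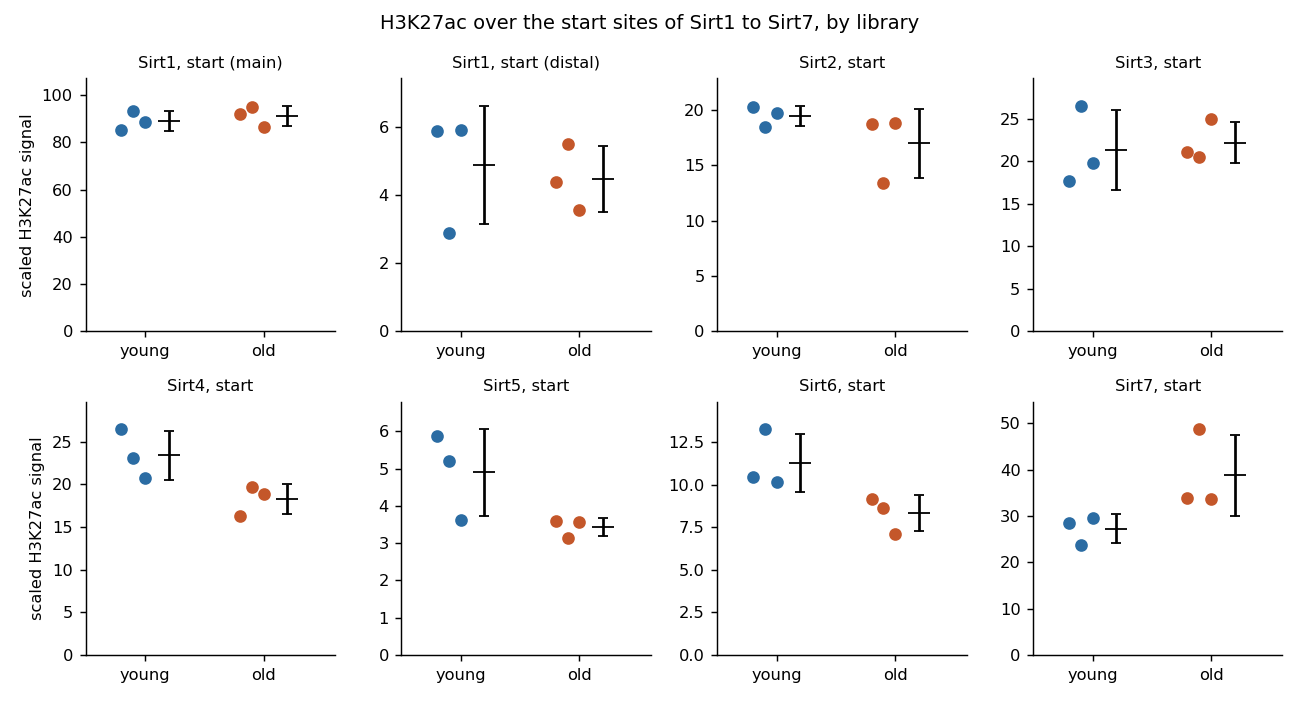
Scaled H3K27ac signal (vertical axes, each from 0) at the 8 regions over a sirtuin start, in young (blue) and old (orange) libraries, with mean and SD of 3 in black. The old points of Sirt4, Sirt5 and Sirt6 lie below all young points, those of Sirt7 above, and at Sirt1, Sirt2 and Sirt3 the ages overlap.

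Among the nuclear sirtuins, the region over the main start of Sirt1, which encodes a deacetylase of histones and of factors such as p53 and FOXO proteins, had near equal H3K27ac at both ages. This region (chr10:63277501-63340500) covered 2 of its 3 start sites and coding exons, and reached far into the ubiquitin ligase gene Herc4. Of its 63 kb, 21.5 kb lay in Sirt1 and 40.4 kb, or 64.1%, in Herc4, so most of this signal was not read over Sirt1. The young libraries measured 85.3, 93.5 and 88.5 in scaled signal and the old libraries 92.1, 95.1 and 86.6. The groups overlapped, and the means were 89.1 ± 4.14 and 91.3 ± 4.31 (SD, n = 3). Between the ages, the log2 fold change came to 0.035 with a 95% interval of -0.17 to 0.24 (SE 0.0991, limma adjusted p = 0.944). That interval corresponds to folds between 0.892 and 1.18, the narrowest of any sirtuin start.

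A separate region of 2 kb (chr10:63381001-63383000) lay over the distal start of Sirt1, used by a transcript that begins far upstream of the others. It reached into Dnajc12, which encodes a co-chaperone. The annotated gene body of Dnajc12 begins inside this region, at chr10:63382443 on the opposite strand. Its nearest coding transcript start lies 4859 bp from the distal Sirt1 start. The signal of this region may therefore not belong to Sirt1 alone. The young libraries measured 5.88, 2.89 and 5.92 in scaled signal and the old libraries 4.38, 5.50 and 3.57. These values rested on 5 to 18 reads per library, and the groups overlapped. The log2 fold change was -0.07 with a 95% interval from -0.82 to 0.67 (SE 0.368, limma adjusted p = 0.974), so that a sizeable change in either direction was not detectable at this depth.

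Sirt6 encodes a chromatin-bound deacylase linked to DNA repair and glucose metabolism. The region over its start (chr10:81625001-81628500) measured 10.5, 13.3 and 10.2 in scaled signal in the young libraries and 9.17, 8.65 and 7.13 in the old. Every old library was below every young library. The gap between the groups was 1.03, and the old libraries held only 23, 11 and 14 reads here. The means were 11.3 ± 1.71 and 8.32 ± 1.06 (SD, n = 3). This gave a log2 fold change of -0.42 with a 95% interval of -0.94 to 0.10 (SE 0.256, limma adjusted p = 0.640). The flanking H3K27ac regions, at the start of BC025920 and inside the ankyrin repeat gene Ankrd24, had log2 fold changes of 0.15 and -0.22 with overlapping groups. Of these, the Ankrd24 region had the widest range among the old libraries, from 4.78 to 11.7 in scaled signal.

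Sirt7 encodes a deacetylase found in the nucleolus, where it is known for its role in ribosomal RNA transcription. The region over its start (chr11:120624001-120635000) measured 28.4, 23.7 and 29.6 in scaled signal in the young libraries and 33.9, 48.8 and 33.6 in the old. All old libraries were above all young ones, and old replicate 2, the library with the fewest reads, was the highest. The means were 27.2 ± 3.15 and 38.8 ± 8.66 (SD, n = 3), a log2 fold change of 0.49 (95% interval 0.16 to 0.82, SE 0.162, limma adjusted p = 0.267). Without old replicate 2 the log2 fold change was 0.31, the lowest of the alternatives, and without old replicate 3 it was 0.58, the highest. Of its 11 kb, 1.24 kb lay in Sirt7 and 77.1% in Mafg, so the value does not belong to the Sirt7 promoter alone.

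The largest difference of all 28 regions lay at the other end of the same gene. The region chr11:120613001-120620500 covered the last exons of Sirt7 and the start of Pcyt2, which encodes an enzyme of phosphatidylethanolamine synthesis. Of its length, 28.4% lay in Sirt7 and 65.8% in Pcyt2, so the value does not belong to Sirt7 alone. The region measured 10.45, 10.96 and 10.85 in scaled signal in the young libraries and 17.1, 19.7 and 16.8 in the old. The groups were far apart relative to their spread, with means of 10.8 ± 0.269 and 17.9 ± 1.56 (SD, n = 3) and a log2 fold change of 0.70 (SE 0.215, 95% interval 0.27 to 1.14). Over the whole table this did not pass, with a limma adjusted p of 0.216 and an edgeR adjusted p of 0.152. Further out, the region of 71.5 kb over the starts of 7 genes from Mcrip1 to Npb had a log2 fold change of 0.13, and the region at the start of Pycr1, an enzyme of proline synthesis, one of -0.19. Both overlapped between ages.

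Sirt2, the mainly cytoplasmic member, encodes a deacetylase of tubulin. The region it shares with Nfkbib (chr7:28763501-28769500) covered all 4 Sirt2 starts. This region measured 20.3, 18.5 and 19.7 in scaled signal in the young libraries and 18.7, 13.4 and 18.9 in the old. Old replicate 2 was the low value and the other old libraries lay within the young range. Sirt2 had a log2 fold change of -0.21 (95% interval -0.61 to 0.19, SE 0.198, limma adjusted p = 0.789), and -0.05 without old replicate 2. The remaining 3 regions were an intronic region of 2.5 kb, the 3′ end with the start of Rinl, and a flank of 28 kb with the starts of the splicing factor gene Hnrnpl and of Ech1. Their log2 fold changes ran from -0.17 to 0.09, and their groups overlapped.

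Of the mitochondrial members, Sirt3 encodes the main deacetylase of the mitochondrial matrix. The region it shares with Psmd13 (chr7:140875001-140886500) measured 17.6, 26.5 and 19.7 in scaled signal in the young libraries and 21.1, 20.4 and 25.0 in the old. The ages overlapped, and the change came to a log2 value of 0.07 (95% interval -0.31 to 0.45, SE 0.187, limma adjusted p = 0.939). At the 3′ end, a region of 20.5 kb that also covered the starts of Ric8a, Bet1l and Gm45785 had young values from 51.6 to 73.9 and old values from 50.2 to 59.1, with a log2 fold change of -0.20 (limma adjusted p = 0.661). A flank region of 2.5 kb had a log2 fold change of -0.025.

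Sirt4 encodes a mitochondrial enzyme known as an inhibitor of glutamate dehydrogenase. It had 1 H3K27ac region (chr5:115483001-115494500), which covered both starts and extended upstream. Of its 11.5 kb, 1.725 kb, or 15%, lay in Sirt4, so most of the region lay outside the gene. The young libraries measured 26.5, 23.1 and 20.7 in scaled signal and the old libraries 16.3, 19.7 and 18.9. All old libraries lay below the young ones. The gap was 1.06, between young replicate 3 and old replicate 2, and the latter held 25 reads here, so few reads decided it. The means were 23.4 ± 2.88 and 18.3 ± 1.73 (SD, n = 3). This is a log2 fold change of -0.35 (95% interval -0.72 to 0.03, SE 0.185, limma adjusted p = 0.561).

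Sirt5 encodes a desuccinylase and demalonylase of mitochondrial proteins. The region over 4 of its 5 starts (chr13:43365001-43367000) was 2 kb long and measured 5.88, 5.19 and 3.62 in scaled signal in the young libraries and 3.59, 3.15 and 3.57 in the old. The lowest young and the highest old library were separated by 0.0305, less than the value of 1 read, and 4 to 18 reads per library lay behind these values. On the log2 scale old minus young was -0.43 with a 95% interval of -1.19 to 0.33 (SE 0.375, limma adjusted p = 0.762). A region of 0.5 kb over a coding exon held 0 to 6 reads per library, too few to compare the ages. Downstream, the region chr13:43396501-43429000 with the start of the nucleolar protein gene Nol7 and part of Ranbp9 measured 43.4, 49.0 and 39.5 in scaled signal in the young libraries and 59.4, 50.3 and 49.4 in the old. Here the old libraries were higher by a small margin, with a log2 fold change of 0.27 (95% interval 0.00 to 0.53, SE 0.131, limma adjusted p = 0.516).

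**Figure D4:**
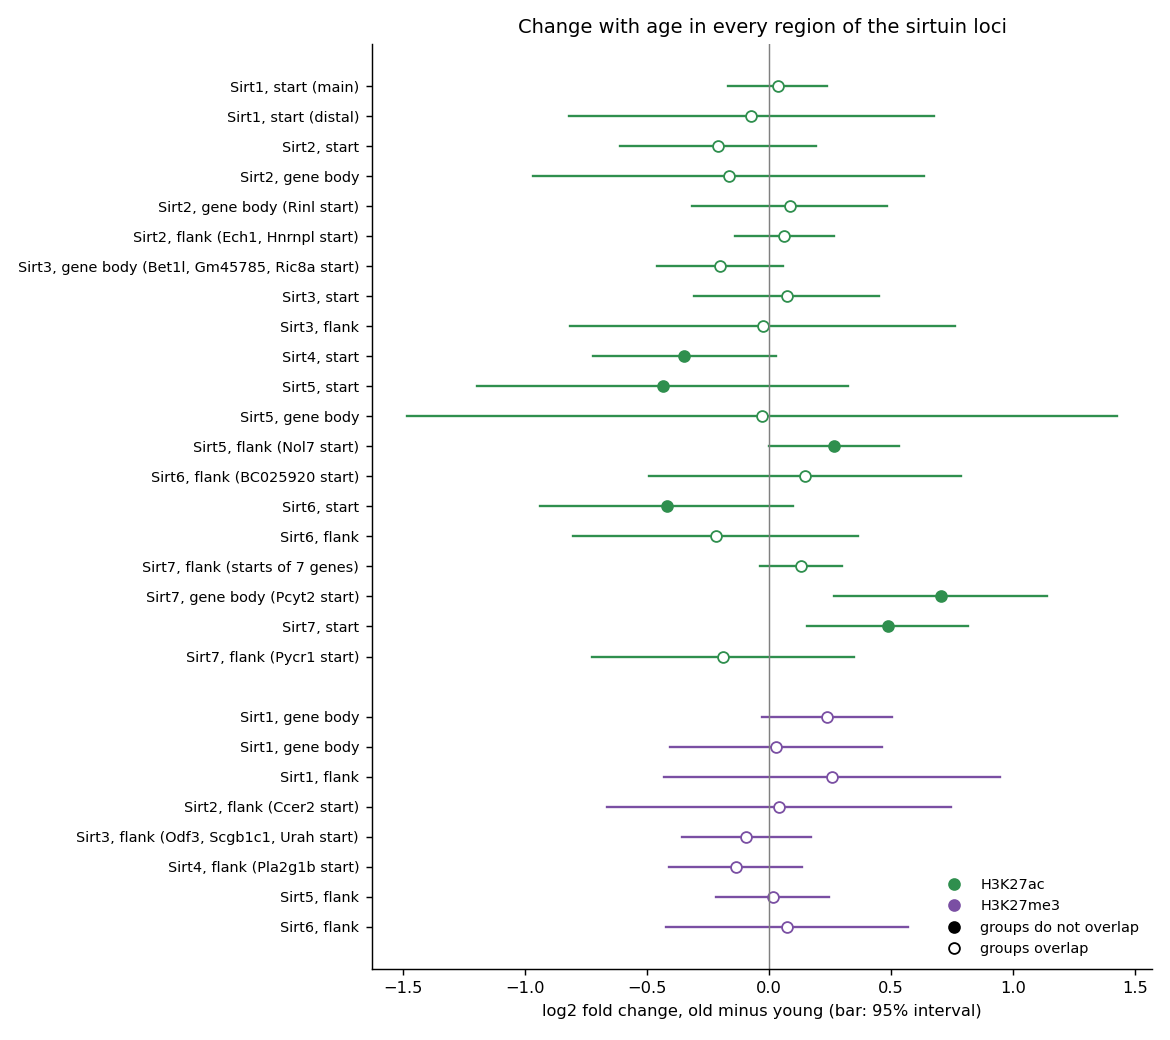
Log2 fold change of old over young (horizontal axis) for the 20 H3K27ac regions (green) and the 8 H3K27me3 regions (purple) of the sirtuin loci, with 95% intervals. Filled points are regions whose groups do not overlap, which are 6 for H3K27ac and 0 for H3K27me3. The intervals of the 2 Sirt7 regions at its start and 3′ end lie to the right of 0. That of the Sirt5 flank with the Nol7 start does so by a very small margin.

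For H3K27me3, limma called 0 of 8 member regions, against 0.488% of all regions (137 regions, 23 higher and 114 lower in old). No member had an unadjusted p under 0.05, where 13.9% of all regions did, and in 0 members did the groups not overlap, against 8.56% of all regions with old higher and 10.6% with old lower. edgeR called 0 members, against 1.4% of all regions, and 0 had an unadjusted p under 0.05, against 14% of all regions. DESeq2 called 0 members, against 0.31%, and 0 at an unadjusted p under 0.05, against 7.87%. It gave no adjusted p for the short member regions at Ccer2, in Dnajc12 and in BC025920, so those could not be called by it. Log2 fold changes of the members ranged from -0.14 to 0.26, with 6 higher and 2 lower in old and a median of 0.035, beside -0.0077 over all regions. On the deposited scale the median of all regions was -0.13, and the calls were 21 higher and 753 lower.

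The H3K27me3 nearest to a sirtuin start was in Sirt1. A region of 23.5 kb (chr10:63339501-63363000) began 0.466 kb upstream of the main start and overlapped the H3K27ac region by 1000 bp. It lay over introns, an exon and untranslated sequence of the transcript from the distal start. The young libraries measured 33.8, 31.6 and 30.1 in scaled H3K27me3 signal and the old libraries 33.2, 40.9 and 39.0. Of the old libraries, 2 were above every young one and 1 was within the young range, with means of 31.8 ± 1.86 and 37.7 ± 4.04 (SD, n = 3). Its log2 fold change was 0.24 (95% interval -0.03 to 0.50, SE 0.128, limma adjusted p = 0.418). A neighbouring region of 10.5 kb in the same gene had a log2 fold change of 0.029, and one of 3 kb in Dnajc12 had 0.26 with old values from 2.84 to 9.67. The upper end of that range was old replicate 2, and the other old libraries measured 2.84 and 4.44.

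The other sirtuins had H3K27me3 only at a distance. Sirt5 had a region of 29.5 kb that ended 2.50 kb before its first start, with young values from 53.9 to 69.0 and old values from 60.9 to 63.7 in scaled signal and a log2 fold change of 0.015 (95% interval -0.21 to 0.24). In the flank of Sirt4, a region of 14.5 kb over the start of Pla2g1b, a secreted phospholipase gene, had a log2 fold change of -0.14 (95% interval -0.41 to 0.14). At Sirt3, a region of 14.5 kb over the starts of Odf3, Scgb1c1 and Urah had -0.09. The short flank regions of Sirt2, at the start of Ccer2, and of Sirt6, in BC025920, had log2 fold changes of 0.041 and 0.075. In each of these regions the ages overlapped.

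Genes whose H3K27ac pattern over the 6 libraries was most like that of a sirtuin start were looked up among promoter regions that cover the start of a single gene. For Sirt7 they were Msantd1 and Dsn1 (Pearson r = 0.989 and 0.988). For Sirt4 they were Zfp790 and Add3 (r = 0.988 and 0.976), for Sirt5 Syne3 and Lonp2 (r = 0.981 and 0.981), and for Sirt6 Cep72 and Tmem135 (r = 0.986 and 0.984). Sirt2 was most like Gcnt2 and Ttc26 (r = 0.994 and 0.992), Sirt3 like Ythdc2 and Cul5 (r = 0.992 and 0.987), and the main Sirt1 region like Akap1 and Vnn3 (r = 0.991 and 0.990). Each r runs over 6 libraries, and of 7233 or 7234 candidate regions between 49 and 151 passed an r of 0.9 for each of these starts, so the genes are named as a description. The regions share libraries and depth.

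The wider NAD+ and sirtuin pathway was read at start sites with a window of 1 kb. In H3K27ac, 11 of 13 genes of NAD+ synthesis and salvage had a region, as did 8 of 8 NAD+-consuming enzymes. So did 7 of 7 regulators and partners of sirtuins and 15 of 20 genes in a list of deacylation targets. That list may also hold genes linked to sirtuins in other ways, and membership is not evidence that a sirtuin acts on the protein. In either direction, 0 of the regions of these lists were called. The median log2 fold changes were 0.020, -0.042, 0.037 and 0.067 in the same order. Regions whose groups did not overlap numbered 0 higher and 1 lower, 0 higher and 2 lower, 0 and 0, and 1 higher and 0 lower. Over the 42 regions together that was 1 higher (2.38%) and 3 lower (7.14%), against 7.09% and 7.42% of all H3K27ac regions, and 0 called, against 0.0822%.

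Among these H3K27ac regions whose groups did not overlap, the largest change was at Nnmt. This gene encodes nicotinamide N-methyltransferase, an enzyme that draws nicotinamide away from NAD+ salvage. Its start region (chr9:48600001-48609000) measured 25.2, 28.3 and 28.0 in scaled H3K27ac signal in the young libraries and 22.7, 15.7 and 17.3 in the old. All old libraries were lower, with a log2 fold change of -0.55 (SE 0.182, limma adjusted p = 0.264). Bst1, an NAD+ glycohydrolase gene that shares its region with Fbxl5, had a log2 fold change of -0.36 (limma adjusted p = 0.629). Idh2, the mitochondrial isocitrate dehydrogenase and a known SIRT3 target, was higher in every old library, with a log2 fold change of 0.21 (limma adjusted p = 0.712). Foxo4, whose groups overlapped, had a larger log2 fold change than Nnmt, -0.62 (limma adjusted p = 0.584).

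H3K27me3 at start sites was less common in these lists, in 2 of 13, 2 of 8, 1 of 7 and 6 of 20 genes, and 0 of 11 regions were called, against 0.488% of all H3K27me3 regions. Their median log2 fold changes were 0.041, -0.085, -0.096 and -0.022. Of the 11 regions, 3 were lower in every old library (27.3%, against 10.6% of all H3K27me3 regions) and 0 were higher in every old library (against 8.56%). The lower ones were Acss1, the mitochondrial acetyl-CoA synthetase and a SIRT3 target, with a region it shares with Vsx1, Ucp2, a carrier of the inner mitochondrial membrane, with a region it shares with Dnajb13, and Sarm1, an NAD+-cleaving enzyme, with a region it shares with Sebox and Vtn. The log2 fold change was -0.24 for each, with limma adjusted p-values of 0.220, 0.302 and 0.292.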

How the data were processed

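The authors deposited, for each mark, 1 table of signal per region and library. They call it RPKM, but the deposited signal was not divided by the length of a region: 100% of values were whole multiples of 1 step per library (tolerance 0.02 of a read), which 1 read is worth when its RPKM is taken over 0.5 kb. Whole reads per region were thus recovered. The multiples do not fix the length of 0.5 kb by themselves, and it was taken as given. With it, libraries held 2750953 to 5541429 reads for H3K27ac and 3622108 to 9947515 for H3K27me3. The RPKM levels over the true length, and their distance from the level of evenly spread reads, rest on the same length. Depth limits the precision of these values, and old replicate 2 was the shallowest of both marks. Some short regions held few reads, with 4 to 18 per library at the Sirt5 start. The submitters' processing notes name Bowtie2 and Picard and the builds mm10 and GRCm38. The region caller is not given in the sources used here, and yeast DNA in the stop buffer was not analysed here. The paper given with these data is about low and high oxygen, not about these libraries, and served for style only.

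Regions were placed on GRCm38 with GENCODE vM21 basic protein-coding genes. The sirtuins as members, and the gene lists, were chosen with earlier results of these data known, and the regions were then taken by position. Signal was scaled by the median of ratios (RLE), 0.5 was added, and limma 3.58.1 was fitted to the log2 values (variance trend, robust moderation, two-sided, no low-value filter, threshold 0.05 after Benjamini-Hochberg adjustment over a table) in R 4.3.3. edgeR 4.0.16 (quasi-likelihood) and DESeq2 1.42.0 were run on the recovered reads as alternatives. Groups followed the sample labels. Figures and sums were made in Python 3.11.15. Named pathway genes were, per mark, those with a called region and the 3 with the largest log2 fold change whose groups did not overlap. For likeness, the 2 genes of highest correlation per start were named, and those of the distal Sirt1 start are not reported here. Same-numbered libraries did not deviate together (correlations of deviations from -0.078 to 0.066), so the numbers were not taken as pairs. No per-sample column was set aside (0 columns).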

Additional observations from a re-analysis of the deposited data

How the results depend on the processing

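The number of called member regions was 0 for both marks under every alternative run, and so was the number of called regions in the pathway lists when the window at start sites was 5 kb. Fitting the replicate number as a replicate block gave 0 member calls in either mark, while the calls over all regions went from 26 to 81 (H3K27ac) and from 137 to 309 (H3K27me3). Over all regions, edgeR called 96 H3K27ac and 394 H3K27me3 regions, limma without trend and robust moderation called 0 and 35, and DESeq2 called 6 and 87. A pseudocount of 2 gave 63 and 201, a pseudocount of 0.1 gave 14 and 71, leaving out the lowest quartile gave 33 and 81, and the deposited scale gave 105 and 774. Leaving out 1 library gave from 2 to 45 H3K27ac calls, the lowest without young replicate 1, and from 10 to 313 H3K27me3 calls, the lowest without young replicate 3 and the highest without old replicate 2.

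The median log2 fold change of the H3K27ac members, -0.026, moved to 0.021 with edgeR, 0.063 without the lowest quartile of regions, 0.012 with a pseudocount of 2, -0.11 on the deposited scale and -0.072 for the gene bodies alone, and ranged from -0.084 to 0.030 when 1 library was left out. Its sign thus depended on these settings. That of the H3K27me3 members, 0.035, ranged from -0.17 (without old replicate 2) to 0.16. Of single starts, 3 changed sign, all with values near 0. The main Sirt1 region was at -0.084 on the deposited scale. The distal Sirt1 region ranged from -0.38 to 0.082 when 1 library was left out, and was at 0.066 without old replicate 3, 0.077 without young replicate 1 and 0.082 without young replicate 3. Sirt3 was at -0.044 on the deposited scale, -0.013 without old replicate 3 and -0.051 without young replicate 1, and reached 0.24 when 1 library was left out. The cause was not tested. Sirt4 stayed between -0.46 and -0.26, Sirt5 between -0.62 and -0.30, Sirt6 between -0.53 and -0.30 and Sirt7 between 0.31 and 0.58 over the alternatives, none of them called. The count of H3K27ac members without overlap went from 6 to 4 on the deposited scale, an alternative chosen after seeing the data, and that of H3K27me3 stayed at 0. With the lowest quartile left out, the distal Sirt1 and the Sirt5 start regions gave no value. Of 204 alternative values, 188 kept direction and side of the threshold or moved within the spread between libraries.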
